A study of Mus musculus with 6 samples.

Results

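The zinc, iron and copper handling genes comprised 38 of the 18193 genes measured by a probe set that names 1 gene. They were chosen by gene name, with no measured value in the rule: every gene of the solute carrier families Slc11, Slc30, Slc31, Slc39 and Slc40, and the genes Mt1, Mt2, Mtf1, Atp7a, Atp7b, Tfrc, Fth1, Cp and Steap3. Ftl1, the ferritin light chain, also fell under the rule but was paired only with probe sets that name several genes and is not analysed here. The expression of these genes was compared between 3 samples of juxtaglomerular (JG) cells, the renin-secreting cells of the afferent arteriole, and 3 samples of renal mesenchymal stromal cells (MSC). All 6 samples came from adult mice of strain C57BL6 carrying Ren1c YFP, a yellow fluorescent protein reporter of the renin gene. JG cells were sorted by their fluorescence (YFP+). MSC were sorted by the surface antigen CD44 and then grown to confluence in DMEM with fetal bovine serum. The labels repeat this medium on the JG samples, so they do not settle whether JG cells were cultured. Nothing in them ties a sample to its own animal or culture dish, so the tests rest on the spread between samples that may be technical.

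Zinc, iron and copper are needed as enzyme cofactors and are toxic in excess, so cells balance their uptake, storage and export. Zinc enters the cytosol through the ZIP proteins encoded by the Slc39 genes, leaves it through the ZnT proteins encoded by the Slc30 genes, and is buffered by metallothioneins whose genes are switched on by the zinc sensor MTF1. Iron bound to transferrin is taken up by the receptor TFRC, reduced by STEAP3, moved across the endosomal membrane by DMT1 (Slc11a2), stored in ferritin and exported by ferroportin (Slc40a1). Iron regulatory proteins bind hairpins in several of these mRNAs and set their translation or stability, so an mRNA level is only part of their control. Copper enters through CTR1 (Slc31a1) and is pumped by ATP7A and ATP7B. In the kidney, filtered transferrin, ferritin and metallothionein are reclaimed by the proximal tubule.

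The values are linear array intensities, and log2 differences (JG minus MSC, ± SE) were taken after adding 16 to each intensity, which understates changes of dim genes. Group values are mean ± SD with n = 3. Adjusted p-values are limma's, adjusted over all 18193 genes by Benjamini-Hochberg, and a gene was called where this value was under 0.05. Array medians ran from 27.3 to 36.5. The JG samples carried transcripts of other kidney cells. All 12 markers of the proximal tubule were called higher there, with a summed intensity of 32034 to 41455 per JG sample against 389 to 693 per MSC sample. The same held for 6 of 6 thick ascending limb markers (8846 to 12469 against 48.8 to 63.7), 7 of 8 distal tubule and collecting duct markers (8057 to 13308 against 35.1 to 65.8) and 6 of 9 endothelial markers (736 to 1100.1 against 67.3 to 76.0). Of 5 measured renin cell markers Rgs5 and Crip1 were called higher in JG. The others were not called, with differences of 0.21 for Cspg4, -0.26 for Mcam and -1.69 for Aldh1a1, whose JG values all lay below its MSC values. Ren1 and Akr1b7 were not measured by a probe set of 1 gene. The sort antigen gene Cd44 averaged 974 ± 81.9 in MSC against 139 ± 17.3 in JG. Of 8 measured mesenchymal stromal markers Cd44 and Itgb1 were called lower in JG, and Thy1 (2.93) and Nt5e (3.24) higher. Which cells gave the transcripts described here was not tested, and in such bulk samples fewer cells of a type and less RNA per cell cannot be told apart.

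Most of the metal handling genes were not called, and the called genes went both ways. Of the 38 genes 4 were called higher in JG (Slc30a2, Tfrc, Slc39a5 and Slc30a9) and 3 lower (Slc39a6, Cp and Slc39a13). These 7 are 18.4% of the genes, where 15.4% of all genes were called. By direction, 7.7% of all genes were called higher and 7.71% lower. The groups did not overlap for 19 of the 38 (50% against 38.9% of all genes). In 12 of these JG was higher (20.2% of all genes) and in 7 it was lower (18.7% of all genes). The median log2 difference was 0.16, and 0.07 over all genes. Only Slc30a2, Tfrc and Slc39a6 were called in every alternative analysis that was run. The 4 higher genes fell to 2 when JG sample 3 or a single MSC sample was left out and were 6 with JG sample 1 or 2 left out. The 3 lower genes fell to 1 when MSC sample 1, MSC sample 2 or JG sample 3 was left out, were 2 with MSC sample 3 or JG sample 2 left out, and 4 with JG sample 1 left out. Over all genes 2803 were called. This count was between 1149 and 1235 when an MSC sample was left out and rose to 5301 when JG sample 1 was.

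**Figure D1:**
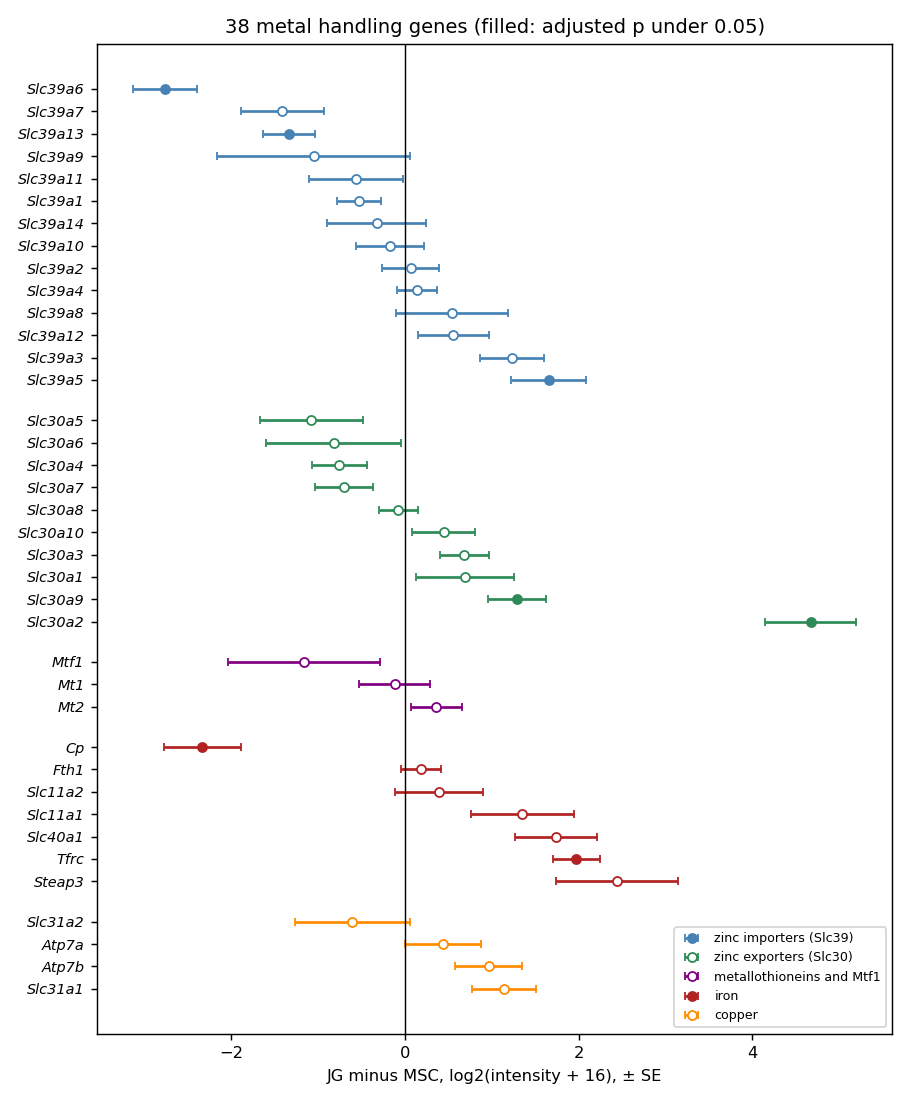
Log2 difference JG minus MSC (x axis, log2 of the intensity plus 16, bars ± SE) for each of the 38 genes, grouped by metal and role, with filled points where the adjusted p was under 0.05. Filled points lie on both sides of 0, from -2.76 for Slc39a6 to 4.67 for Slc30a2, and most points are open.

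Among the zinc importers, 2 of 14 were called lower in JG and 1 higher (21.4% called, against 15.4% of all genes). Slc39a6 encodes ZIP6, a zinc importer of the plasma membrane. Its intensity was 4926, 4982 and 5105 in MSC samples 1 to 3 and 1224, 623 and 495 in JG samples 1 to 3. All JG samples lay far below all MSC samples (-2.76 ± 0.37, adjusted p = 0.00515). On the scale used, this is a 6.79-fold lower level in JG. Of its 4 probe sets, all had a negative difference and 3 were called lower when all probe sets were tested together. Slc39a13 encodes ZIP13, which releases zinc from compartments of the secretory pathway. It stood at 74.1, 82.7 and 97.6 in MSC and 41.0, 18.3 and 16.1 in JG (-1.34 ± 0.30, adjusted p = 0.0324). The groups did not overlap, but the call was lost without any 1 of MSC samples 1, 2 and 3 or JG samples 2 and 3 (adjusted p from 0.0607 to 0.134). It was also lost with an intensity trend and robust prior (0.0613) and with the replicate number as a block (0.0945).

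Slc39a5 encodes ZIP5, an importer of the basolateral membrane of epithelia. It was 1.00, 1.29 and 1.14 in MSC and 70.5, 12.4 and 47.7 in JG (1.65 ± 0.43, adjusted p = 0.0495). JG sample 2 lay below the added 16 and the others above it, so the size of this difference depends on the pseudocount: it was 4.07 with 1 added and 0.68 (adjusted p = 0.110) with 64 added. The call was lost without any 1 sample other than JG sample 2 (adjusted p from 0.0538 to 0.159). It was also lost with quantile normalization (0.0669) or when probe sets of suffix s or x were left out (0.0506). The fit with the replicate number as a block lost it too (0.0861).

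The other 11 importers were not called. Slc39a7, the ZIP7 importer that releases zinc from the endoplasmic reticulum, was 878, 781 and 1279 in MSC and 529, 166 and 475 in JG, with no overlap (-1.41 ± 0.48, adjusted p = 0.0997). Slc39a3 was 35.2, 62.3 and 109 in MSC and 149, 163 and 204 in JG by its brightest probe set (1.23 ± 0.37, adjusted p = 0.0737). A second probe set of Slc39a3 had a difference of -0.30, so its 2 probe sets do not give 1 direction. Slc39a14, which encodes ZIP14, a carrier of zinc and of iron not bound to transferrin, was 208, 245 and 223 in MSC and 215, 370 and 63.5 in JG. The JG samples lay on both sides of the MSC samples (-0.33 ± 0.57, 95% interval -1.70 to 1.05, adjusted p = 0.732), and its 4 probe sets were split, 2 positive and 2 negative. The related importer gene Slc39a8 was 183, 283 and 483 in MSC and 1057, 206 and 365 in JG (adjusted p = 0.604). Slc39a4, the importer of dietary zinc in the gut, lay below 16 in all 6 samples.

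**Figure D2:**
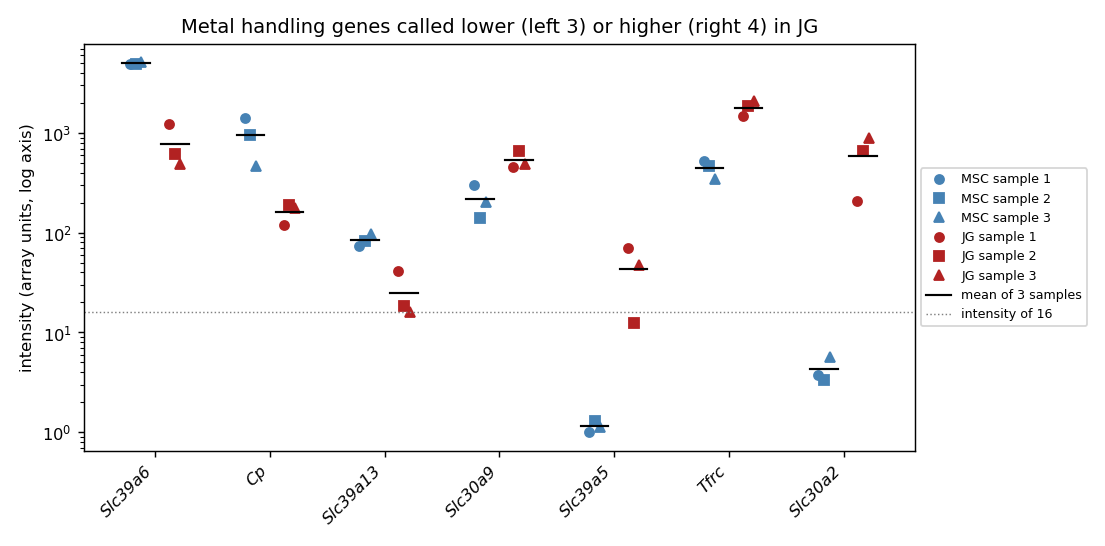
Intensity (log y axis) of the 7 called genes in each of the 6 samples, MSC in blue and JG in red, with black bars at the mean of 3 samples and a dotted line at an intensity of 16. The groups do not overlap for any of these 7 genes, and Slc30a2 and Slc39a5 lie below 16 in every MSC sample.

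Among the zinc exporters, 2 of 10 were called higher in JG and 0 lower (20% called, against 15.4% of all genes). In either direction 4 of the 10 had an unadjusted limma p under 0.05 (40%, against 31.9% of all genes). Slc30a2 encodes ZnT2, which loads zinc into vesicles and lysosomes and is best known from milk secretion. It had the largest difference of the 38 genes. Its intensity was 3.74, 3.36 and 5.73 in MSC and 210, 661 and 885 in JG, so every MSC sample was near the floor and every JG sample well above it (4.67 ± 0.52, adjusted p = 0.00272). With 1 added in place of 16 the difference was 6.59. Slc30a2 was read by 1 probe set. Slc30a9, a more distant member of the family linked to mitochondrial zinc, was 302, 142 and 204 in MSC and 456, 659 and 490 in JG. The groups did not overlap (1.29 ± 0.33, adjusted p = 0.0477). This call was lost in 10 of 16 alternatives, among them each fit with 1 sample left out other than JG sample 1, with adjusted p up to 0.160.

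Slc30a1 encodes ZnT1, the zinc exporter of the plasma membrane and a target of MTF1. It was 426, 537 and 596 in MSC and 1495, 334 and 1165 in JG. JG samples 1 and 3 were above all MSC samples and JG sample 2 below them (0.69 ± 0.56, 95% interval -0.67 to 2.05, adjusted p = 0.448). Without JG sample 2 the difference was 1.33 (adjusted p = 0.0284). The 4 exporters that load zinc into the Golgi and its vesicles, Slc30a4, Slc30a5, Slc30a6 and Slc30a7, had differences from -1.08 to -0.70 and were not called. Slc30a8, the exporter of pancreatic beta cell granules, lay below 16 in all samples.

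The metallothionein genes were not called. Metallothioneins are small cysteine-rich proteins that bind zinc, copper and cadmium. Mt1 was 1488, 2720 and 1975 in MSC and 2302, 1092 and 2480 in JG. Mt2 was 1545, 2237 and 1345 in MSC and 2522, 1727 and 2273 in JG. The groups overlapped for both genes. The log2 difference was -0.12 ± 0.41 for Mt1 (95% interval -1.11 to 0.87, adjusted p = 0.871) and 0.36 ± 0.30 for Mt2 (-0.35 to 1.07, adjusted p = 0.447). Of the 5 genes here that are MTF1 targets (Mt1, Mt2, Slc30a1, Slc39a10 and Slc40a1) 0 were called by limma, against 15.4% of all genes. Slc40a1 alone had an unadjusted limma p under 0.05, against 31.9% of all genes. With 5 genes these counts do not set the targets apart from all genes. The sign of the Mt1 difference turned in 5 of 16 alternatives, and its second, dimmer probe set gave 0.70. Mtf1, the gene of the zinc sensor, was 171, 153 and 180 in MSC and 323, 10.8 and 44.6 in JG. JG sample 1 lay above the MSC samples and the others JG samples below (-1.16 ± 0.88, adjusted p = 0.409). Of the 5 probe sets of Mtf1, 4 had a negative and 1 a positive difference, and none was called. Without JG sample 1 the difference was -2.19 (adjusted p = 0.0135).

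MTF1 binds metal response elements, whose core reads TGCACNC or TGCGCNC. These letters were searched on both strands in the 250 bases before each annotated start, in RefSeq promoters of GRCm38.p6. Of the 38 genes 32 had a promoter in the table, and Slc11a2, Slc30a8, Slc39a14, Slc39a4, Slc39a6 and Slc40a1 had none. A match lay before at least 1 start of 16 of the 32 genes, and in 17 of their 43 windows (39.5%), where 21.4% of the 32851 windows of all genes held 1. Genes with several starts give several windows that may overlap. The windows of 4 genes are shown because their genes are the metallothioneins, the MTF1 target Slc30a1 and the exporter with the largest difference. Annotated starts were taken as given and not checked against the starts used in these cells. A window may therefore lie off the promoter in use or within transcribed sequence. Capitals mark the matches on either strand, and each sequence runs 5′ to 3′ on the gene's strand and ends at the base before the start.
Mt1: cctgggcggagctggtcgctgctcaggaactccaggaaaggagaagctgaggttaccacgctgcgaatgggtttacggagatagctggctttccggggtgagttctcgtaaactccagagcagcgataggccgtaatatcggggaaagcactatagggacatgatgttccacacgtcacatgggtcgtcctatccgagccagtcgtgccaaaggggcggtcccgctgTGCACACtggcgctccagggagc
Mt2: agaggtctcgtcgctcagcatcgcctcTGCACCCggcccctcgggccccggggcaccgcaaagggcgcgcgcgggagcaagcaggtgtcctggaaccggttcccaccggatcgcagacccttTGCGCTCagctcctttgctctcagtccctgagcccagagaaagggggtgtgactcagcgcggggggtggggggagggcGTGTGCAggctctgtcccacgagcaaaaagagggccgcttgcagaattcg
Slc30a1: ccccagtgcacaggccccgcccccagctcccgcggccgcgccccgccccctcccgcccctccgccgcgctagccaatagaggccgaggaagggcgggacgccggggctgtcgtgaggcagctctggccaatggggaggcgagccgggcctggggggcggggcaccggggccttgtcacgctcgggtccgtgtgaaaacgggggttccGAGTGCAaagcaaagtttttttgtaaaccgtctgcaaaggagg
Slc30a2: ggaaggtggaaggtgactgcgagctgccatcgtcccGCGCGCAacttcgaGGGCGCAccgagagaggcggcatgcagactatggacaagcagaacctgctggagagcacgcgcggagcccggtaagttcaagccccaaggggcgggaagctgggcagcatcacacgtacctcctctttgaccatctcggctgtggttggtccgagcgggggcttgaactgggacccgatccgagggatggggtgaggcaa

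The Mt2 window (chr8:94172368-94172617, plus strand) held 3 matches. The neighbouring Mt1 window (chr8:94178839-94179088, plus strand) held 1. The Slc30a1 window (chr1:191906531-191906780, plus strand) held 1 and the Slc30a2 window (chr4:134343216-134343465, plus strand) held 2. In the 50 bases after the annotated start a further 2 lay wholly at Mt1, 1 at Mt2, 1 at Slc30a1 and 0 at Slc30a2. Over these 300 bases Mt1 held 3, Mt2 4, Slc30a1 2 and Slc30a2 2. In the 250 bases before the start, at least 2 matches were found in 5.17% of all windows and at least 3 in 1.26%. Over 300 bases at least 3 were found in 1.97%. Among the called genes other than Slc30a2, Tfrc had 2 matches that overlap each other before 1 of its 2 starts. Slc39a5 had 1 match before 1 of its 2 starts. Cp, Slc39a13 and Slc30a9 had none in these windows, and Slc39a6 had no window. Whether the matches go with the expression differences was not tested. A match is a run of letters and was not tested as a binding site.

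Of the 7 iron genes 1 was called higher in JG and 1 lower (28.6% called, against 15.4% of all genes). The groups did not overlap for 6 of the 7 (85.7%, against 38.9% of all genes). Fth1 is among these 6 by a narrow margin (lowest JG value 8012, highest MSC value 8007). Tfrc encodes the transferrin receptor, the main route of iron into most cells. It was 526, 471 and 349 in MSC and 1480, 1849 and 2078 in JG. Every JG sample lay above every MSC sample (1.97 ± 0.27, adjusted p = 0.00572), a 3.93-fold higher level on the scale used. Of its 3 probe sets 2 were called higher (1.97 and 2.89), and the third had a difference of 0.89 with JG sample 2 below all MSC samples. Tfrc is also abundant in immature red cells. Of 6 measured red cell markers 2 were called higher in JG, the globin gene Hbb-b2 and Slc4a1, which is also a marker of the collecting duct. Hba-a2, an alpha globin gene, went the other way without overlap, at 2049, 2876 and 3237 in MSC and 1990, 806 and 472 in JG; its difference of -1.53 missed the threshold (adjusted p = 0.108). All 6 markers summed to 3186 to 6413 per JG sample and 2079 to 3262 per MSC sample, and Hba-a2 gave most of the MSC sums. Alas2, the heme synthesis enzyme of red cells, averaged 25.6 ± 10.8 in JG against 10.6 ± 3.98 in MSC (not called, adjusted p = 0.196). Of 9 proliferation markers 6 were lower in JG and 0 higher, with a summed intensity of 692 to 1385 against 2929 to 4194. The part of these cells in the Tfrc difference was not tested.

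Cp encodes ceruloplasmin, a copper-containing oxidase that oxidises iron as it leaves cells. It was 1429, 949 and 470.0 in MSC and 119, 188 and 176 in JG, with no overlap (-2.33 ± 0.44, adjusted p = 0.0184). The 8 probe sets of Cp all had a negative difference, from -4.32 to -0.66, and 5 were called lower. MSC sample 1 was the highest on the chosen probe set, and without it the difference was -1.97 (adjusted p = 0.0613). The call was also lost without MSC sample 2 (0.0834) or JG sample 3 (0.0526), and with the replicate number as a block (0.058).

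**Figure D3:**
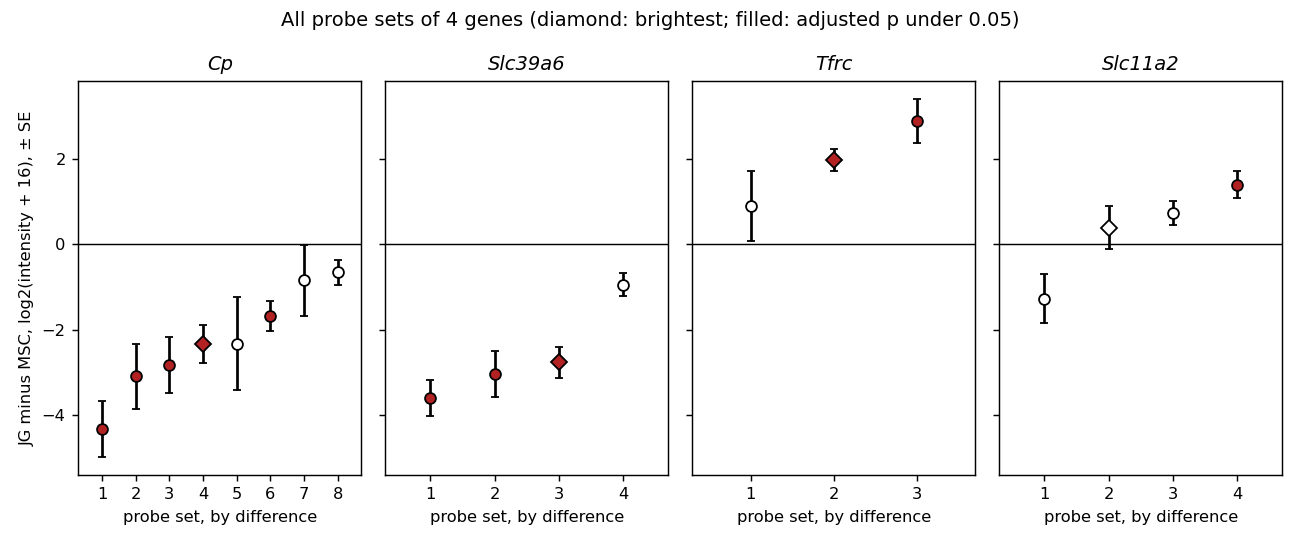
Log2 difference JG minus MSC (y axis, log2 of the intensity plus 16, bars ± SE) of every probe set of 4 genes, ordered by size, with a diamond for the brightest and filled points where the adjusted p over all probe sets was under 0.05. The probe sets of Cp and Slc39a6 all lie below 0 and those of Tfrc above 0, while those of Slc11a2 lie on both sides.

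The other iron genes were not called. Slc40a1, which encodes the iron exporter ferroportin, was 18.7, 20.7 and 25.5 in MSC and 229, 51.9 and 102 in JG. All JG samples were above all MSC samples but spread 4.41-fold (1.74 ± 0.47, adjusted p = 0.0565). It was called in 6 of 16 alternatives, among them those without JG sample 1 (adjusted p = 0.0343) or JG sample 2 (0.0179). Steap3, the endosomal ferrireductase, was 20.7, 22.9 and 12.9 in MSC and 586, 93.1 and 85.1 in JG. JG sample 1 stood far above the others, and the groups did not overlap (2.44 ± 0.70, adjusted p = 0.0653). It was called in 5 of 16 alternatives, and without JG sample 1 the difference was 1.61 (adjusted p = 0.00852).

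Fth1 encodes the ferritin heavy chain, which oxidises iron for storage. It was 7996, 7753 and 8007 in MSC and 10866, 8319 and 8012 in JG. The lowest JG value lay just above the highest MSC value (0.18 ± 0.23, 95% interval -0.38 to 0.74, adjusted p = 0.630). Its second probe set gave 0.24. Of the 4 measured genes whose mRNAs carry iron response elements (Tfrc, Slc11a2, Slc40a1 and Fth1), Tfrc alone was called, against 15.4% of all genes. With 4 genes this count does not set them apart from all genes. Slc11a2, which encodes the iron importer DMT1, was 698, 696 and 953 in MSC and 1920, 486 and 1125 in JG, with overlap (0.39 ± 0.51, adjusted p = 0.635). Of its 4 probe sets 1 was called higher (1.39), 2 had positive differences and 1 a negative difference of -1.27. Slc11a1, which encodes NRAMP1, a metal pump of macrophage phagosomes, was 7.62, 5.35 and 7.90 in MSC and 9.87, 124 and 39.5 in JG (1.35 ± 0.59, adjusted p = 0.176). It was called without JG sample 1 (1.94, adjusted p = 0.0242). Of 12 macrophage markers C1qb and Csf1r were called higher in JG and 0 lower. The summed intensity of these markers was 1198, 2263 and 3239 in JG samples 1 to 3 and 185 to 695 in the MSC samples. Csf1r (343, 378 and 1958) and C1qb (270, 1318 and 659) gave most of each JG sum. Among the others, Fcer1g averaged 142 in JG against 27.4 in MSC, Lyz2 72.8 against 73.5 and Cd68 18.9 against 24.3. The part of macrophages in the Slc11a1 values was not tested.

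None of the 4 copper genes was called by limma; 2 of them had an unadjusted p under 0.05, against 31.9% of all genes. Slc31a1, the gene of the copper importer CTR1, was 199, 210 and 236 in MSC and 752, 291 and 538 in JG. The groups did not overlap (1.14 ± 0.37, adjusted p = 0.0917). It was called in 3 of 16 alternatives: without JG sample 2 (adjusted p = 0.0176), with quantile normalization (0.0287) and with median centring (0.0485). Its second probe set gave 0.36 ± 1.04, with JG sample 2 (33.1) below all MSC samples. With the mean of all probe sets the difference was 0.75 (limma adjusted p = 0.476). Atp7b, the copper pump mutated in Wilson disease, was 17.8, 6.82 and 11.7 in MSC and 22.3, 74.9 and 29.6 in JG, dim values that did not overlap (0.96 ± 0.39, adjusted p = 0.146). Its other probe sets gave 0.68 and -0.07, and on both the groups overlapped. Atp7a, the copper pump mutated in Menkes disease, was 563, 386 and 496 in MSC and 341, 785 and 1022 in JG (0.44 ± 0.44, adjusted p = 0.530), and its second probe set gave -0.55. Slc31a2, a gene related to Slc31a1, was 181, 108 and 51.6 in MSC and 170, 23.7 and 47.2 in JG, with overlap (adjusted p = 0.567).

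**Figure D4:**
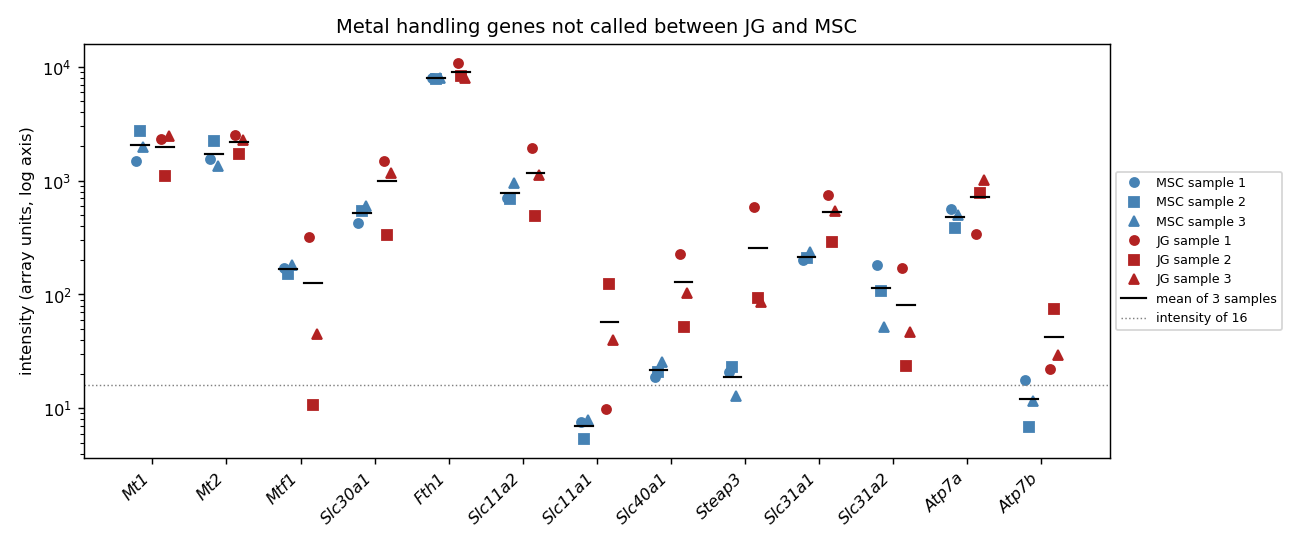
Intensity (log y axis) of 13 genes that were not called, in each MSC sample (blue) and each JG sample (red), with black bars at the mean of 3 samples and a dotted line at an intensity of 16. Mt1, Mt2 and Fth1 are bright in all 6 samples, and the JG samples of Mtf1, Slc11a1 and Steap3 are spread widely.

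The JG samples varied more among themselves than the MSC samples. The median SD of a metal handling gene on the log2 scale was 0.67 in JG and 0.24 in MSC, and 0.55 and 0.26 over all genes. Among the 26 genes with a mean intensity of at least 100, JG sample 1 was the highest JG sample for 16 (61.5%, against 46.1% of all such genes) and JG sample 2 the lowest for 14 (53.8%, against 54.4%). The widest ratio between the highest and the lowest JG sample was 53.2-fold for Slc39a9, which was 402 and 375 in JG samples 1 and 3 and 7.55 in JG sample 2. Of the 22 genes with more than 1 probe set, 13 had probe sets of 1 sign and 9 had probe sets of both signs.

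Other genes of these pathways were taken from lists. Of 34 measured genes of iron uptake, storage and regulation 5 were called higher in JG and 3 lower. Over all genes 7.7% were called higher and 7.71% lower. The median log2 difference of this list was 0.41, and 0.07 over all genes. Lrp2 and Cubn, which encode the receptors megalin and cubilin that reclaim filtered proteins, were 3503 ± 302 and 901.1 ± 294 in JG and 19.5 ± 13.8 and 15.7 ± 10.5 in MSC. Both are also among the proximal tubule markers. Scara5, a receptor for ferritin, was 1468 ± 857 in JG and 14.7 ± 16.6 in MSC (5.55 ± 0.55, adjusted p = 0.00166). Heph, a membrane-bound relative of ceruloplasmin, was 848, 206 and 114 in JG and 8.18, 15.3 and 11.1 in MSC (3.41 ± 0.68, adjusted p = 0.0217). It was called higher where Cp was called lower. Aco1, the gene of iron regulatory protein 1, was 1733 ± 411 in JG and 322 ± 28.4 in MSC (2.35 ± 0.26, adjusted p = 0.00242), while Ireb2, the gene of iron regulatory protein 2, was not called (-1.64, adjusted p = 0.152). Lower in JG were Steap1 (-3.53) and Steap2 (-1.76), which encode relatives of STEAP3, and Hmox1 (-2.99), the heme oxygenase that releases iron from heme. Hamp, the gene of the iron hormone hepcidin, was 31.6 at most on any array.

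Of 20 measured copper chaperones and copper enzymes 2 were called higher (against 7.7% of all genes) and 2 lower (against 7.71%). Their median was 0.08. Sod3, the secreted copper and zinc superoxide dismutase, was 3778 ± 721 in JG and 203 ± 176 in MSC, and the peptide-amidating enzyme gene Pam was 2833 ± 91.3 and 1456 ± 203. The lysyl oxidase genes Lox (-6.05) and Loxl3 (-2.32), whose products cross-link collagen and need copper, were lower in JG. The chaperone genes Atox1, Ccs and Cox17 and the cytosolic dismutase gene Sod1 were not called (adjusted p from 0.259 to 0.667). Of 14 genes in a zinc list, mostly zinc enzymes and MTF1 targets, 7 were called higher (against 7.7% of all genes) and 0 lower (against 7.71%). The median of these 14 genes was 1.94. This list, like the others, was written with earlier results of these data known. The carbonic anhydrase genes Car4 (1914 ± 84.3 in JG, 6.36 ± 3.13 in MSC) and Car12 (998 ± 212 and 32.7 ± 9.26), the alkaline phosphatase gene Alpl (1003.2 ± 622 and 8.60 ± 6.15) and the peptidase gene Ace (737 ± 586 and 19.2 ± 8.07) had the largest differences. The nephron markers given above were higher in the same samples, and their part in these list counts was not tested.

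**Figure D5:**
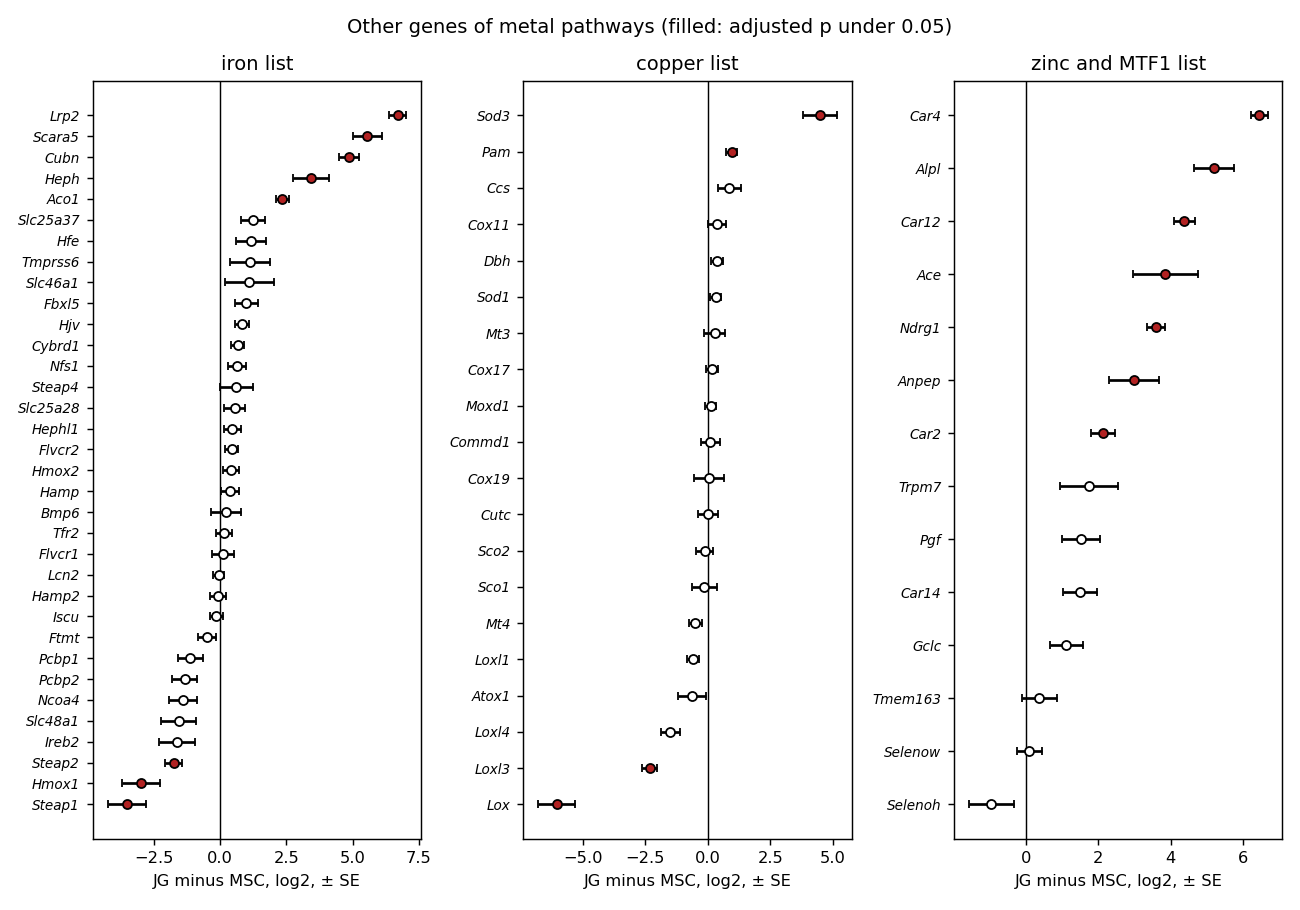
Log2 difference JG minus MSC (x axis, log2 of the intensity plus 16, bars ± SE; the 3 panels have different scales) of 34 iron, 20 copper and 14 zinc and MTF1 genes beyond the 38, with filled points where the adjusted p was under 0.05. Called genes lie on both sides of 0 in the iron and copper panels and only above 0 in the zinc panel.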

How the data were processed

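Total RNA was amplified to biotin-labelled cRNA and hybridised to 6 single-channel Affymetrix mouse arrays, per the labels' protocols. The authors deposited 1 table of linear intensities for 45037 probe sets. The sources used here do not give the probe summary, the background correction or the scaling of arrays. The table used here has no detection calls, so a low intensity is not read as absence, and 3 arrays a group limit the precision.

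The platform annotation paired 34945 probe sets with 1 gene, 932 with several and 9160 with none, and 0 symbols changed against RefSeq. The probe set with the highest mean intensity stood for each gene. Values entered limma 3.58.1 (R 4.3.3; lmFit and eBayes, no covariates, no filter) as log2(intensity + 16). On simulated data of 18193 genes, the fit recovered 0% of genes changed by a log2 difference of 1. It recovered 37.4% of those changed by 2 and 96.5% of those changed by 4. The simulation changed far fewer genes than the 2803 called here, which makes the adjusted threshold stricter. These shares are therefore not the power of the reported fit, which called Pam at a difference of 0.96 (limma adjusted p = 0.0358).

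The genes and lists were chosen with earlier results of these data known. Named are called genes, core genes of each metal whether called or not, up to 4 called genes of each pathway list per direction, and others chosen after their values were seen. Alternatives were quantile normalization, median centring, pseudocounts of 1 and 64, a filter at the 25th percentile, the mean of all probe sets, no probe sets of suffix s or x, a trended robust prior, a replicate block, each sample left out and, added after seeing the data, the probe set brightest by mean log2 value. Sequences are from RefSeq (GRCm38.p6).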

Additional observations from a re-analysis of the deposited data

How the results depend on the processing

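The calls of Slc30a2, Tfrc and Slc39a6 held under all 16 alternatives, with log2 differences of 3.07 to 6.59, 1.81 to 2.11 and -3.14 to -2.50. The count of metal handling genes higher in JG was 7 with median centring, which moved the median difference of all genes from 0.07 to 0.19. With 1 sample left out at a time, this count ran from 2 to 6, that of genes lower in JG from 1 to 4, and that of all called genes from 1149 to 5301. Leaving out a sample also leaves fewer residual degrees of freedom. Same-numbered samples of the groups did not deviate together (correlations of -0.20, -0.01 and -0.01). With 3 samples a group this cannot exclude that the samples were paired. The fit with the replicate number as a block called 1594 genes, 2 metal handling genes higher and 1 lower. Of the 20 genes followed through every alternative, the sign turned for Mt1 with median centring (0.0066), the mean of all probe sets (0.29), no probe sets of suffix s or x (0.70), without MSC sample 2 (0.10) and without JG sample 2 (0.25). It also turned for Atp7a (-0.0568) and Slc39a14 (0.0147) with the mean of all probe sets, for Mtf1 (0.47) with the probe set brightest by mean log2 value, for Slc11a2 (-0.0605) without JG sample 1 and for Slc39a14 (0.31) without JG sample 3. With 1 sample left out at a time these differences ran from -0.33 to 0.25 for Mt1, -0.0605 to 0.91 for Slc11a2 and -0.83 to 0.31 for Slc39a14. None of these 5 genes was called in the reported fit. The other 18 genes were not followed in this way. Among them Slc39a9 turned to 0.19 with the mean of all probe sets. Of the 6 zinc carriers of the endoplasmic reticulum and Golgi grouped below, 2 turned without JG sample 2. Turns of sign among the rest of the 18 were not counted. The cause of these changes was not tested. Genes whose dimmer group lies below 16 have differences set largely by the brighter group and the pseudocount.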

Other observations

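A set of 6 zinc carriers of the endoplasmic reticulum and Golgi, grouped after their values were seen, had negative log2 differences by their brightest probe sets. These genes, the importers Slc39a7, Slc39a13 and Slc39a9 and the exporters Slc30a5, Slc30a6 and Slc30a7, ranged from -1.41 to -0.70 with a median of -1.07, and 1 of them (Slc39a13) was called. Slc30a4, an exporter into vesicles that is not among the 6, had -0.75. With the mean of all probe sets 5 of the 6 were negative and Slc39a9 was 0.19; of its 3 probe sets 1 had a difference of 2.23. JG sample 2 had the lowest of the 6 values for each of these genes but Slc39a13, at 7.55 for Slc39a9, 42.0 for Slc30a6, 99.5 for Slc30a5, 115 for Slc30a7 and 166 for Slc39a7. Without JG sample 2, 4 of the 6 differences were negative, the median was -0.44 and 0 were called by limma.

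Cp and Heph, whose products oxidise exported iron, went in opposite directions. The secreted ceruloplasmin gene Cp was lower in JG and the membrane-bound Heph was higher, as the values above show. The Cp call was lost in 4 of 16 alternatives, and Heph was not followed through them. Hephl1, also in the iron list, was not called (0.45, limma adjusted p = 0.384). The iron regulatory protein genes also differed, with Aco1 higher in JG in 3 of 3 samples and Ireb2 at 241, 156 and 208 in MSC and 181, 15.3 and 37.3 in JG, with overlap.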
